A study of Mus musculus with 12 samples.

Results

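Retinoic acid, the active derivative of vitamin A, is made from retinol by successive oxidations and acts through nuclear receptors that bind DNA. Rdh10 oxidises retinol to retinaldehyde, Dhrs3 reduces retinaldehyde back to retinol, and the retinaldehyde dehydrogenases Aldh1a1, Aldh1a2 and Aldh1a3 make retinoic acid, which Cyp26a1 and Cyp26b1 oxidise for disposal and Crabp1 and Crabp2 bind in the cytoplasm. In the developing pituitary, genes of this pathway are known as markers of progenitors and of particular parts of the gland. These 9 genes were found by symbol among the 27129 genes of the per-library expression table, and each had 1 row.

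RNA was sequenced from pituitaries of mice at postnatal day 0, with the posterior lobe taken off. The 6 libraries labelled mutant have the genotype Prop1cre;Isl1fx/-, with a floxed and a null allele of Isl1, a LIM-homeodomain transcription factor, and the 6 control libraries have Prop1cre;Isl1+/fx, with a floxed and an intact allele. The null allele was present in every cell of the mutant animals. Both groups carry the Cre transgene, named for a gene of pituitary progenitors, and both carry a floxed allele on which Cre can act. Cells without Cre kept their floxed allele. Libraries held 45415453 to 61533576 fragments in the group labelled mutant and 46204920 to 51535425 in the control group. The labels do not say whether a library is 1 animal or a pool, so p-values rest on the spread between libraries.

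The 8 markers of the anterior and intermediate lobes, hormone and transcription factor genes led by Gh and Pomc, summed to 64459 to 80607 FPKM in the libraries labelled mutant and 69840 to 97363 FPKM in control libraries. FPKM are fragment counts scaled by transcript length and library size. CPM are fragment counts scaled by library size, corrected by TMM factors, and not by transcript length. Isl1 itself averaged 59.3 ± 4.98 CPM in the libraries labelled mutant and 35.4 ± 3.04 CPM in control libraries (SD, n = 6 each). Its log2 fold change was 0.74 (edgeR quasi-likelihood test, adjusted p = 8.71e-06). This whole-gene level is not split between the deleted and the remaining exons, and it went in the direction opposite to a loss of transcript, so every direction below is that of the labels. The libraries numbered 0 of both groups stood apart from the other 10 in the FPKM per CPM of most members. For Crabp2 this was 1.14 in both of them and 1.37 to 1.39 in the others. For Aldh1a1 it was 0.527 in mutant replicate 0 and 0.516 in control replicate 0, against 0.522 to 0.529 in the others. Results are therefore also given without the libraries numbered 0. The calls of Aldh1a1 (edgeR adjusted p = 0.0219) and Aldh1a3 (0.0457) then stood. Of 15246 genes tested, edgeR called 656 up and 419 down with the mutant label at an adjusted p under 0.05.

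Promoters of Aldh1a1, Aldh1a7 and Aldh1a2 are shown because Aldh1a1 and its neighbouring paralog Aldh1a7 were both higher in the libraries labelled mutant, as described below. RefSeq windows on GRCm38.p6 (the mm10 build), 250 bases before to 50 after a start site, matched 6 of the 9 genes. They give the following for Aldh1a1 (chr19:20601718-20602017, plus strand), Aldh1a7 (chr19:20727507-20727806, minus strand) and Aldh1a2 (chr9:71215539-71215838, plus strand), with the octamer ATGCAAAT in capitals.
Aldh1a1 promoter: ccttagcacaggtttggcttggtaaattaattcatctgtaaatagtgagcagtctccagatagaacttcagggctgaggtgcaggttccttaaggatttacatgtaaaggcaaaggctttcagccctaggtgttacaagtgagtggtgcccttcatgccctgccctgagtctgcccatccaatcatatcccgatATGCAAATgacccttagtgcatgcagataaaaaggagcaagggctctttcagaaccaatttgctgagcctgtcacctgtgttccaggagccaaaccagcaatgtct
Aldh1a7 promoter: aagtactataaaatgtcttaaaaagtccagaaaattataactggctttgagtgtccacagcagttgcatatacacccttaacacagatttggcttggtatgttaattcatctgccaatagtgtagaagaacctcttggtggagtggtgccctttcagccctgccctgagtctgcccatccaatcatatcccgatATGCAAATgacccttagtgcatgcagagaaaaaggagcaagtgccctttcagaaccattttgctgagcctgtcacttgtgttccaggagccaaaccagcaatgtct
Aldh1a2 promoter: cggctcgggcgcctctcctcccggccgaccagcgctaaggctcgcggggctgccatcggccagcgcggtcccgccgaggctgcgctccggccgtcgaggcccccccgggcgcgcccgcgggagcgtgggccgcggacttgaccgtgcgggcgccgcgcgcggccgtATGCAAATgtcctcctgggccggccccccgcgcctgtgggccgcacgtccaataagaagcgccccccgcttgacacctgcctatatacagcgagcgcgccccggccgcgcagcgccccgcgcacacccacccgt
The Aldh1a1 and Aldh1a7 windows aligned over 159 bases, of which 154 were identical (96.9%), and both hold the octamer 56 bases before the start. In Aldh1a2 it begins 84 bases before the start. The other Aldh1a1 window in the table, at an upstream start (chr19:20492333-20492632), holds none, nor do the windows of Adh1, Cyp26a1, Cyp26b1, Dhrs3 and Crabp1. Aldh1a3, Rdh10 and Crabp2 had no window, so their promoters were not searched, here or below. The octamer was looked for after these sequences had been read. On either strand it occurs in 570 of the 32851 promoter windows of the table (1.74%).

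A second set is shown for the response elements of the receptors, direct repeats of a 6-base unit. The unit searched was AGGTCA or one of its variants, which were AGTTCA and, with another first base, GGTTCA and lastly GGGTCA, on either strand, with 1, 2 or 5 bases between them. Among the members, a window with any of these repeats was found for Cyp26a1 (chr19:37697558-37697857, plus strand). Among the receptors, the best known target, Rarb, held one too (chr14:16575427-16575726, minus strand). In the wider retinoid list Bco1, a carotenoid-cleaving enzyme gene, held a repeat with a spacer of 1. Capitals mark the repeat with a spacer of 5 bases.
Cyp26a1 promoter: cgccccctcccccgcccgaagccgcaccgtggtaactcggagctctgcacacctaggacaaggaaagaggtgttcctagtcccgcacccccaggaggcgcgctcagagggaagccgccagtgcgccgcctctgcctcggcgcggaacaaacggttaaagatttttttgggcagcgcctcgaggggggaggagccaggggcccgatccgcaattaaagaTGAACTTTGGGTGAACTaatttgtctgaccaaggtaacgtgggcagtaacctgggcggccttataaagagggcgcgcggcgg
Rarb promoter: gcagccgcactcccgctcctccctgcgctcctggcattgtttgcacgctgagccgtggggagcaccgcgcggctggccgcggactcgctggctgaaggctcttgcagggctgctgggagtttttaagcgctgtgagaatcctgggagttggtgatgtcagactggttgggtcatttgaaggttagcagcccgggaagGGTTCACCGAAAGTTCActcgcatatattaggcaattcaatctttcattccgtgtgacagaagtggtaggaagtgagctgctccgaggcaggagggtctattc
The repeat begins 32 bases before the start of Cyp26a1 and 53 bases before that of Rarb. Repeats with a spacer of 5 were present in 32 of the 32851 windows (0.0974%), with a spacer of 1 in 0.222% and with a spacer of 2 in 0.268%. A match is a stretch of letters and not a shown binding site.

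Among the 3 dehydrogenases that make retinoic acid, Aldh1a1 rose, Aldh1a3 fell and Aldh1a2, by far the most abundant, did not pass the test. Of the 9 members 8 passed the filter on low values (FPKM of at least 1 in at least 6 libraries). Of these 8, 1 was called higher, against 4.30% of all genes tested, and 1 was called lower, against 2.75% of all genes tested; 6 were not called. Either direction was called for 7.05% of all genes. The groups overlapped for all 8 tested members, while over all genes tested 2.91% were higher and 1.37% lower without overlap. The median log2 fold change was 0.05 over the 8 members and 0.00 over all genes tested. The plot of CPM by library shows the values of each member.

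**Figure D1:**
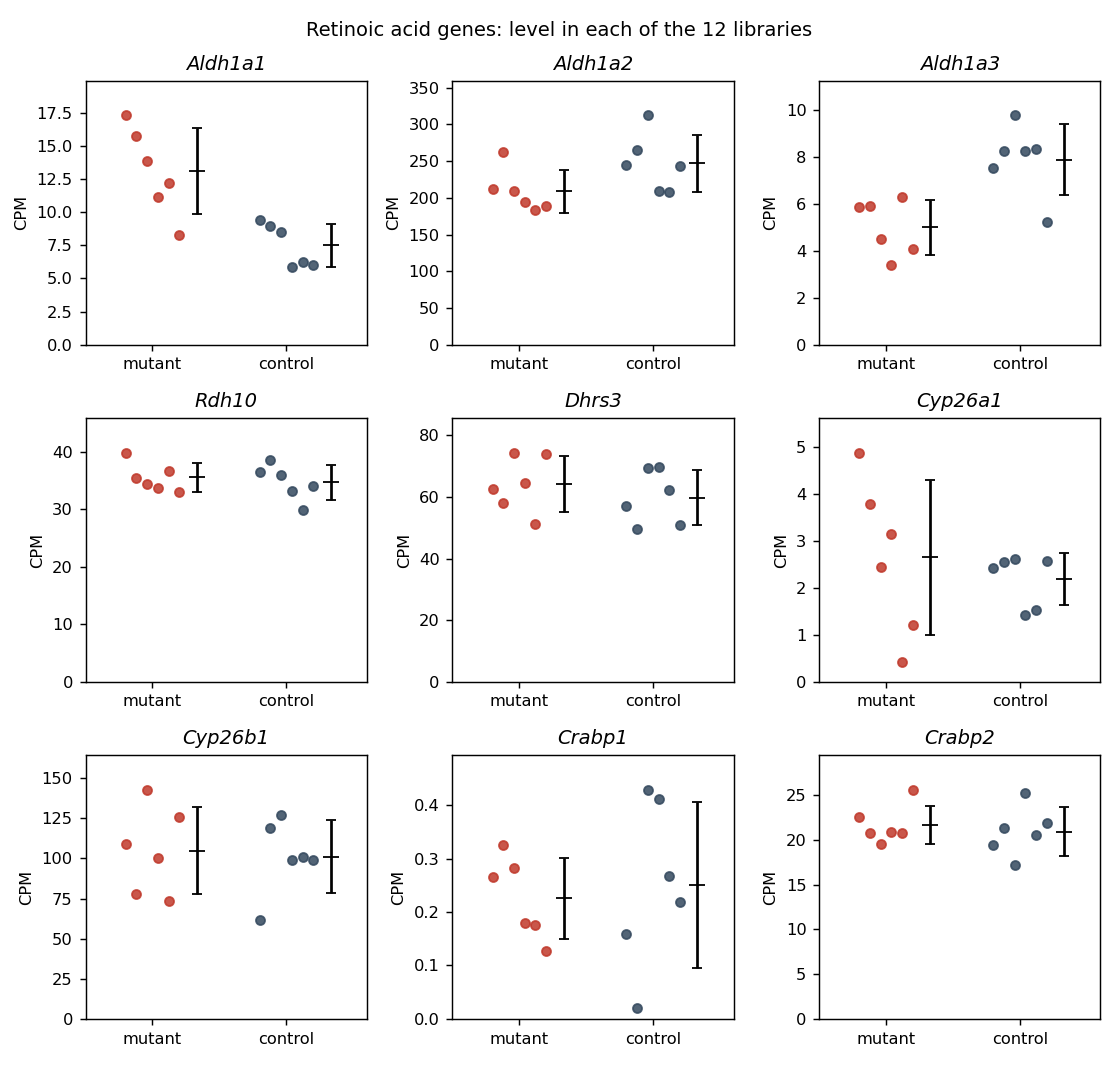
Each panel plots the CPM of 1 gene (linear axis from 0) in each library, the 6 libraries labelled mutant at the left in red and the 6 control libraries at the right in blue, with the mean and SD as a bar beside them. Aldh1a1 sits higher in the libraries labelled mutant (13.1 against 7.49 CPM), Aldh1a3 sits lower (5.0 against 7.89 CPM), and the groups overlap for all 9 genes.

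Aldh1a1 (chromosome 19, 20601982 to 20643462, mm10) codes for a cytosolic dehydrogenase that is also known as a marker of progenitor cells in several tissues. It had 8.29 CPM in the lowest, 13.0 in the median and 17.3 CPM in the highest library labelled mutant, against 5.84, 7.35 and 9.43 CPM in control libraries. In 5 of 6 libraries labelled mutant the level was above that of every control library, and the lowest of them lay within the control range. The means were 13.1 ± 3.25 CPM in the libraries labelled mutant and 7.49 ± 1.63 CPM in control libraries (SD, n = 6 each). The log2 fold change was 0.80 (SE 0.18), a fold of 1.74 with a 95% interval of 1.34 to 2.27 (edgeR, adjusted p = 0.0145). It was called in 23 of the 23 alternative settings that tested it, with log2 fold changes of 0.66 to 0.90. In whole-gland RNA, a change in the number of cells of a type and a change in RNA per cell cannot be told apart, here and in the results that follow. Of the 50-base words in the Aldh1a1 transcript 6.54% also occur in Aldh1a7, and the transcripts are 90.3% identical over 2011 aligned bases, so part of its fragments could be split between the genes by the counting.

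Aldh1a3 (chromosome 7, 66390893 to 66427477) codes for the dehydrogenase of the family that is best known from the eye and nasal region of the embryo. It had 3.38 CPM in the lowest, 5.18 in the median and 6.28 CPM in the highest library labelled mutant, against 5.21, 8.26 and 9.78 CPM in control libraries. In 3 libraries labelled mutant it was below the lowest control library, and the other 5 control libraries were at 7.51 CPM or more. The log2 fold change was -0.66 (SE 0.17), a fold of 0.632 with an interval of 0.492 to 0.812 (edgeR, adjusted p = 0.0312). This call was lost when any 1 of 7 libraries was left out. The edgeR adjusted p was 0.0754, 0.0595 and 0.0598 without mutant replicates 2, 3 and 5, and 0.0680, 0.0603, 0.0621 and 0.0634 without control replicates 1, 2, 3 and 4. The fold change stayed negative in all 23 alternatives that tested it. These values rest on 194 to 291 fragments in a library labelled mutant and 239 to 456 in a control library.

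Aldh1a2 (chromosome 9, 71215789 to 71296243), the main retinaldehyde dehydrogenase of the early embryo and a gene of mesenchyme and meninges in many places, was at 96.9 FPKM in the libraries labelled mutant and 115 FPKM in control libraries. Its mean level was above that of 96.3% of the genes tested. It had 184 CPM in the lowest, 202 in the median and 263 CPM in the highest library labelled mutant, against 208, 244 and 312 CPM in control libraries. In 3 libraries labelled mutant the level was below that of every control library, while the highest of the group lay in the middle of the control range. The log2 fold change was -0.24, with an interval of -0.47 to -0.02 that leaves out 0 before adjustment, and the adjusted p was 0.188 (edgeR). It was not called in any of 24 alternatives. In the authors' deposited table its q-value was 0.0114 and the gene was not marked as changed.

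Per length, Aldh1a2 made up most of the summed level of the 3 synthesis genes. Aldh1a1 took 6.50% ± 1.26 of the summed FPKM in the libraries labelled mutant and 3.25% ± 0.541 in control libraries (SD, n = 6 each), with ranges of 4.65% to 8.49% and 2.67% to 4.15% that did not overlap. Aldh1a3 took 1.41% in the libraries labelled mutant and 1.95% in control libraries, with overlapping ranges. Aldh1a2 took 92.1% in the libraries labelled mutant and 94.8% in control libraries. The ratio of Aldh1a1 to Aldh1a3 was 4.74 ± 1.05 in the libraries labelled mutant and 1.73 ± 0.446 in control libraries (SD, n = 6 each), and the lowest value of the first group (3.39) was above the highest of the second (2.38). The summed level of the 3 genes was 105 ± 14.7 FPKM in the libraries labelled mutant and 121 ± 18.7 FPKM in control libraries, with overlapping ranges. Without the libraries numbered 0 the share of Aldh1a1 was 6.10% in the libraries labelled mutant and 3.07% in control libraries, and the ratio of Aldh1a1 to Aldh1a3 was 4.55 in the libraries labelled mutant and 1.59 in control libraries, still with no overlap. No test was run on these shares or on the ratio, which rest on the genes described above. The ratio of Aldh1a1 to Aldh1a3 sets the member called higher against the member called lower. Its lack of overlap therefore rests on those calls and adds no support to them. The share of Aldh1a1 sets the member called higher against a sum made up mostly of Aldh1a2. Its lack of overlap is likewise no separate support.

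**Figure D2:**
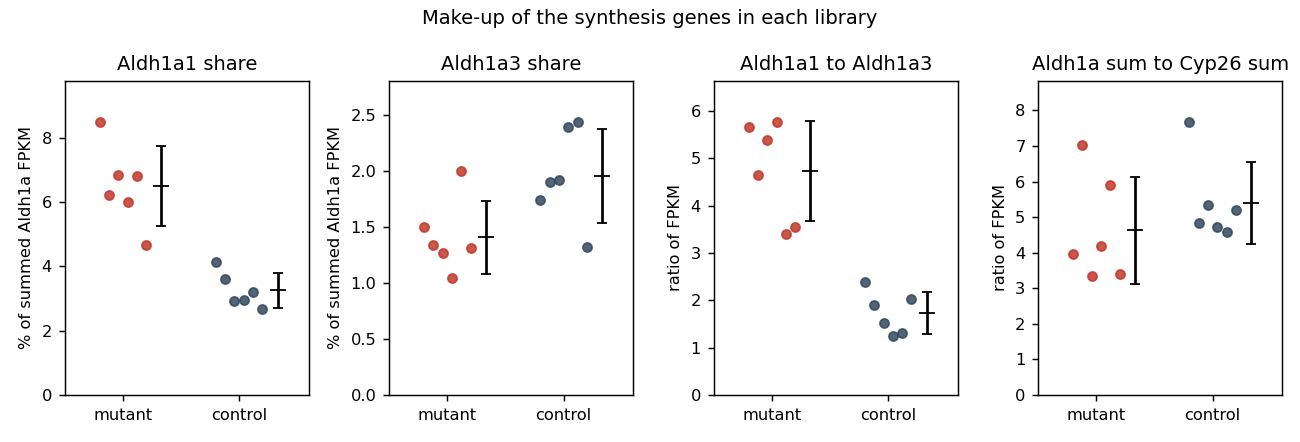
Each panel plots 1 quantity per library, calculated from FPKM on a linear axis from 0, with the 6 libraries labelled mutant in red at the left, the 6 control libraries in blue at the right, and the mean and SD as a bar. The share of Aldh1a1 (6.50% against 3.25%) and the ratio of Aldh1a1 to Aldh1a3 (4.74 against 1.73) do not overlap between the groups, and the Aldh1a to Cyp26 ratio does. The ratio of Aldh1a1 to Aldh1a3 sets the member called higher against the member called lower, so its separation is no further support. The share of Aldh1a1 also rests on the member called higher, so the same holds for it.

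The enzymes on either side of retinaldehyde did not pass the test. Rdh10 averaged 35.5 ± 2.46 CPM in the libraries labelled mutant and 34.7 ± 3.06 CPM in control libraries, a log2 fold change of 0.03 with an interval of -0.10 to 0.17. Dhrs3, which retinoic acid is known to induce, averaged 64.2 ± 8.98 CPM in the libraries labelled mutant and 59.8 ± 8.78 CPM in control libraries, a log2 fold change of 0.10 with an interval of -0.13 to 0.33. The adjusted p-values were 0.803 for Rdh10 and 0.628 for Dhrs3 (edgeR). These intervals leave out a change as large as that of Aldh1a1 in either gene.

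For the breakdown enzymes the data set looser limits. Cyp26b1, which is at 22.5 FPKM in the libraries labelled mutant and 21.7 FPKM in control libraries, had a log2 fold change of 0.05 with an interval of -0.34 to 0.45 (edgeR, adjusted p = 0.897). Cyp26a1, the enzyme best known to be induced by retinoic acid itself, had 0.419 CPM in the lowest, 2.80 in the median and 4.88 CPM in the highest library labelled mutant, against 1.42, 2.48 and 2.62 CPM in control libraries. Its libraries labelled mutant lay both above the highest control library, in 3 cases, and below the lowest, in 2 cases. The coefficient of variation was 62.4% in the libraries labelled mutant and 25.3% in control libraries, a spread that was not tested. The log2 fold change was 0.28 with an interval of -0.60 to 1.16 (edgeR, adjusted p = 0.745), and it ran from 0.03 to 0.50 as single libraries were left out. The ratio of summed Aldh1a to summed Cyp26a1 and Cyp26b1 FPKM was 4.63 ± 1.5 in the libraries labelled mutant and 5.39 ± 1.2 in control libraries (SD, n = 6 each). Without the libraries numbered 0 it was 4.77 in the libraries labelled mutant and 4.94 in control libraries.

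Neither binding protein gene passed its test. Crabp2, which carries retinoic acid to its receptors, had 19.5 CPM in the lowest, 20.9 in the median and 25.6 CPM in the highest library labelled mutant, against 17.1, 21.0 and 25.3 CPM in control libraries, and a log2 fold change of 0.05 with an interval of -0.14 to 0.24 (edgeR, adjusted p = 0.787). Crabp1 was too low for the filter, with 6 to 17 fragments per library in the group labelled mutant and 1 to 20 in the control group. It averaged 0.226 CPM in the libraries labelled mutant and 0.251 CPM in control libraries (two-sided exact permutation test, p = 0.723). Crabp2 made up 98.7% of the summed Crabp FPKM in the libraries labelled mutant and 98.5% in control libraries.

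Outside these 9 genes, 54 further gene symbols were listed, of which 52 were in the table and 33 were tested. They were listed by role in the retinoid pathway or, as with Aldh1a7, only as aldehyde dehydrogenases close to the family. Of the 33, 2 were higher and 1 was lower, while 30 were not called. These shares are near those over all genes tested, which were 4.30% higher and 2.75% lower, so the counts say little about the list. Aldh1a7 (chromosome 19, 20692953 to 20727556), the paralog beside Aldh1a1, had 3.89 CPM in the lowest, 5.41 in the median and 8.32 CPM in the highest library labelled mutant, against 1.67, 1.82 and 2.04 CPM in control libraries. The groups did not overlap, as for 4.28% of all genes tested, and the log2 fold change was 1.67 (SE 0.17, edgeR adjusted p = 3.23e-05). Only 1 control library reached the FPKM minimum, so this gene passed the filter through the libraries labelled mutant. Adh1, an alcohol dehydrogenase that oxidises retinol, averaged 17.3 ± 2.63 CPM in the libraries labelled mutant and 9.87 ± 1.89 CPM in control libraries (SD, n = 6 each), again without overlap, with a log2 fold change of 0.81 (SE 0.13, edgeR adjusted p = 0.00207). Ret, a receptor tyrosine kinase gene that retinoic acid induces in some tissues, averaged 11 ± 1.08 CPM in the libraries labelled mutant and 13.8 ± 1.32 CPM in control libraries, with a log2 fold change of -0.32 (edgeR adjusted p = 0.0241). Of the 12 libraries left out in turn, 3 decided the Ret call, which was lost without mutant replicate 2 (adjusted p = 0.0589), mutant replicate 3 (0.0593) or control replicate 3 (0.0533).

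**Figure D3:**
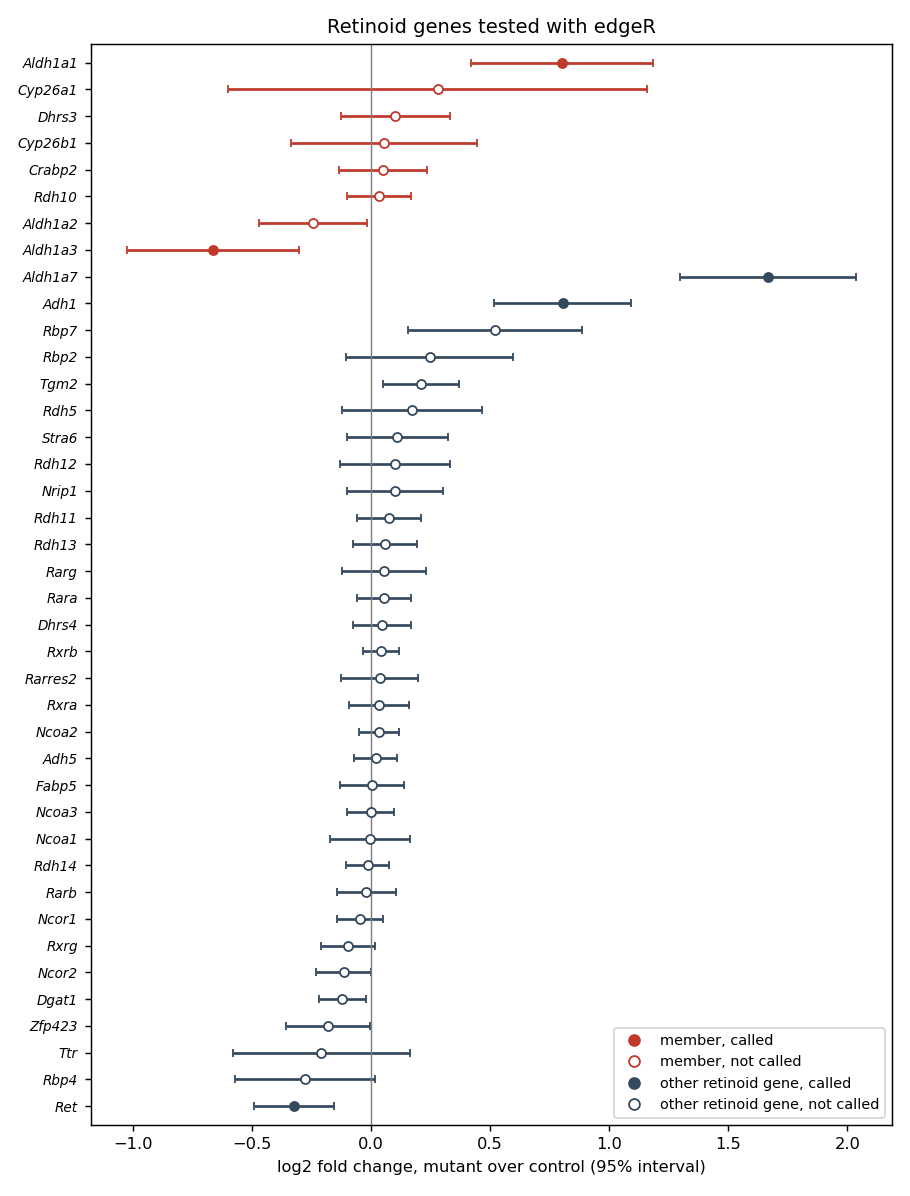
The log2 fold change, libraries labelled mutant over control libraries, of each tested member (red) and of other tested retinoid genes (blue) is plotted with its 95% interval, filled where the edgeR adjusted p is under 0.05. Aldh1a1, Aldh1a7 and Adh1 lie to the right of 0 and Aldh1a3 and Ret to the left, with the receptors close to 0.

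The receptors and the tested genes for the supply of retinol did not pass the test. The log2 fold changes of the 6 receptors, Rara, Rarb, Rarg, Rxra, Rxrb and Rxrg, ran from -0.10 for Rxrg to 0.06 for Rarg, and 0 of 6 were called. Exons of Top2b overlap Rarb on the opposite strand and 54.1% of the 50-base words of the Rarb transcript occur there, so its level is uncertain with a kit that does not keep the strand. The 6 receptor cofactors were not called either, with values of -0.11 to 0.10. Stra6, the retinol uptake receptor, had a log2 fold change of 0.11 (edgeR adjusted p = 0.561), and Rbp4, the carrier of retinol in blood, had one of -0.28 (edgeR adjusted p = 0.253). Lrat, which stores retinol as esters, and Cyp26c1, a further breakdown enzyme gene, were too low for the filter and were not tested. Lrat averaged 0.0189 CPM in the libraries labelled mutant and 0.0252 CPM in control libraries. Cyp26c1 averaged 0.142 CPM in the libraries labelled mutant and 0.148 CPM in control libraries.

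Markers of the cells in the gland and of others were read beside these results; over all genes tested 4.30% were higher and 2.75% lower. Of the 8 anterior and intermediate lobe markers 3 were lower. They were Cga, the shared subunit of glycoprotein hormones (log2 fold change -2.30, edgeR adjusted p = 5.92e-05), Tshb, the thyrotropin subunit (-0.60, 0.00804), and Pitx1, an early pituitary transcription factor gene (-0.23, 0.0381). Of 4 Schwann cell and glia genes 1, Erbb3, was higher (log2 fold change 0.32, edgeR adjusted p = 0.000671). In the list for airway-type and multiciliated epithelium 6 of 7 genes were tested and called higher. Of these 6, Krt5, Krt15, Sec14l3 and Ltf passed the filter through the libraries labelled mutant, with 0 or 1 control libraries at the minimum, so their count supports nothing; Foxj1 and Cyp2f2 passed in all 12 libraries. The summed level of the list was 52.3 to 108 FPKM in the libraries labelled mutant and 10.1 to 14.4 FPKM in control libraries. Foxj1, the regulator of motile cilia, was at 18.4 FPKM in the libraries labelled mutant and 7.35 FPKM in control libraries, and Scgb1a1, the defining gene of airway club cells, was at 0.0099 FPKM in the libraries labelled mutant and 0.012 FPKM in control libraries. Of 6 progenitor markers 3 were higher, namely Sox2, Cdh1 and Hes1, and the list summed to 179 to 192 FPKM in the libraries labelled mutant and 164 to 194 FPKM in control libraries. Of 9 genes of mesenchyme and meninges 1, Pdgfra, was higher, with sums of 750 to 960 FPKM in the libraries labelled mutant and 641 to 1189 FPKM in control libraries. Of 6 endothelial genes 1, Plvap, was lower. Markers of the posterior lobe and hypothalamus were still found although that lobe was taken off. They summed to 39.3 to 53.3 FPKM in the libraries labelled mutant and 40.5 to 57.0 FPKM in control libraries. Of these 6 genes 5 were tested and 0 were called. The part of these cell populations in the values of the Aldh1a genes was not tested.

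By likeness over the 12 libraries, the genes nearest to Aldh1a1 were Fmo2, a flavin monooxygenase gene, Fgfr3, a receptor for fibroblast growth factors, and Rsph4a, a gene of the radial spokes of motile cilia. Their root mean square differences from Aldh1a1 in centred log2 CPM were 0.18 for Fmo2, 0.23 for Fgfr3 and 0.23 for Rsph4a. Those nearest to Aldh1a3 were Lamc3, which codes for a laminin chain, Kcng1, a potassium channel subunit gene, and Cacna1i, a calcium channel gene, at 0.20, 0.26 and 0.26. The measure includes the difference between the groups, so it favours genes that differ as these do.

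In the authors' deposited comparison at the level of transcripts, both isoforms of Cyp26b1 and of Dhrs3 were listed and none was marked as changed. The more abundant Cyp26b1 isoform was at 19.0 FPKM in the group labelled mutant and 17.5 FPKM in the control group, and the other was at 3.43 FPKM in the group labelled mutant and 4.18 FPKM in the control group. The Dhrs3 isoforms were at 27.1 and 17.8 FPKM in the group labelled mutant and 25.5 and 16.4 FPKM in the control group, the more abundant isoform first. The authors' deposited table marked Aldh1a1 (log2 fold change 0.81) and Aldh1a3 (-0.66) as changed, and 7 members as not changed. Of the genes of the wider list called by edgeR, it marked Adh1 and Aldh1a7 as changed. It did not mark Ret (log2 fold change -0.34, authors' q-value 0.0157). Nor did it mark Aldh1a2 (-0.24, 0.0114), so a q-value under 0.05 was not enough for the authors' mark. The edgeR calls rest on the adjusted p alone, so the 2 kinds of call are not alike.

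**Figure D4:**
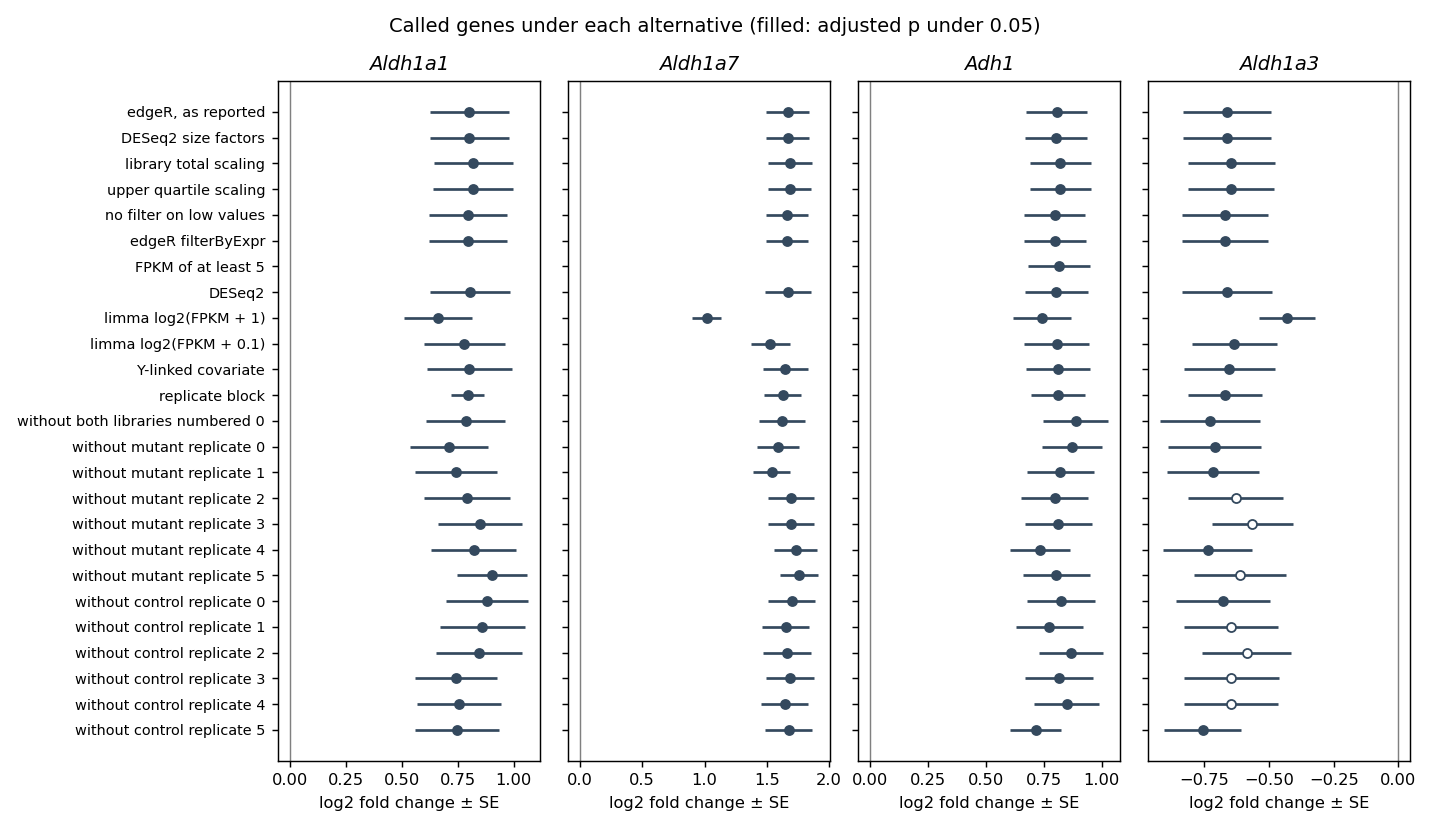
The log2 fold change with its SE is plotted for Aldh1a1, Aldh1a7, Adh1 and Aldh1a3 under the reported setting (top line) and each alternative, as filled circles where the adjusted p is under 0.05. Aldh1a1 is filled in all lines where it was tested, between 0.66 and 0.90, and Aldh1a3 turns open in 7 lines, each of which leaves out 1 library. Aldh1a7 passed the reported filter on low values through the libraries labelled mutant.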

How the data were processed

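Libraries from whole postnatal pituitary, posterior lobe removed, were made with a TruSeq RNA kit, per the labels; that kit does not mark strand. FastQC 0.10.1, Cuffdiff 2.1.1, Cufflinks, Bowtie2 2.1.0 and TopHat2 2.0.9, and the mm10 build, are named in the submitters' processing notes; the role of each is not given in the sources used here. The authors deposited per-library estimated counts of fragments and FPKM, per the file headers, and a comparison with log2 fold changes and q-values.

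The estimated counts, whole in 89.99% to 90.41% of values above 0, were rounded, scaled with TMM factors and tested with edgeR 4.0.16 (R 4.3.3; quasi-likelihood F test, Benjamini-Hochberg over the 15246 genes that reached 1 FPKM in 6 or more of 12 libraries; 11883 were set aside). CPM use the TMM-scaled totals and compare libraries within a gene; FPKM compare genes. Crabp1 was tested by an exact permutation test (scipy 1.17.1). Limma 3.58.1 and DESeq2 1.42.0 were alternatives, as were other scalings, filters, a replicate block, a Y-linked covariate and leaving out libraries; shares without the libraries numbered 0 were added after seeing the data. Of 12 further per-sample columns no use was made. In none of the 30 replicate pairs were the counts as alike as repeat sequencing of 1 library would give (chi-square divided by its degrees of freedom: 17.3 to 41.1). On simulated data for this comparison over 15246 genes, edgeR called 46% of genes changed by a fold of 1.25, 94% at 1.5 and 98% at 2, and 0.0133% of unchanged genes. The changed genes were drawn from those with a mean above 1 CPM, and counts were drawn with the fitted dispersions. These shares run over many genes and do not hold for each single gene.

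The members and lists were chosen with earlier results of these data known. Named genes are the 9 members, called genes of the wider retinoid list, receptors, Stra6, Rbp4, Lrat and Cyp26c1, the 3 genes most like each called member, Isl1, and markers among the 3 highest of their list; Scgb1a1, Krt5, Sec14l3, Ltf, Cdh1, Pdgfra, Cga, Pitx1, Adh7, Dhrs9, Bco1, Top2b and Rbp7 were named after their values were seen. Of the wider list 1 gene, though counted, is not reported here. File starts were raised by 1 to count from 1.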

Additional observations from a re-analysis of the deposited data

Results flagged for a closer look

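Aldh1a2 in mutant replicate 1 was at 263 CPM, apart from the other 5 libraries labelled mutant, which ran from 184 to 213 CPM. The gap to the nearest of them was 0.639 of the range of the group. Of 24 groups of libraries examined in this way 1 stood out, and chance alone sets apart about 1 group in 20. Without this library the log2 fold change of Aldh1a2 was -0.32 and the edgeR adjusted p 0.0726, so the gene was still not called.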

How the results depend on the processing

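Aldh1a1, Adh1 and Aldh1a7 were called in every alternative that tested them. Aldh1a7 passed the reported filter through the libraries labelled mutant, so its calls under that filter are no separate support. With no filter on low values its log2 fold change was 1.66 (edgeR adjusted p = 1.99e-05). With FPKM of at least 5 in 6 libraries, Aldh1a1 and Aldh1a3 were not tested, 0 members were called higher and 0 lower, 1 and 0 of the wider list, and 283 genes higher and 192 lower in all. With no filter or with filterByExpr 4 genes of the wider list were higher. Lower genes numbered 807 with DESeq2 and 216 and 203 with limma on log2(FPKM + 1) and log2(FPKM + 0.1). Higher calls were 61.0% of all calls as reported, 72.2% with library totals, 71.8% with upper quartile scaling, 53.7% with DESeq2, and 71.0% and 71.8% with limma. Leaving out 1 library gave 197 to 443 genes lower (197 to 273 without mutant replicate 1, 2, 3 or 4 or control replicate 1, 3 or 4), 0 to 1 members lower, 0 to 2 of the wider list lower (2 without mutant replicate 4) and 2 to 4 higher (4 without control replicate 3), and a log2 fold change of -0.76 to -0.56 for Aldh1a3. In CPM the mean Aldh1a3 share was 2.21% in the libraries labelled mutant and 3.04% in control libraries, and the Aldh1a to Cyp26 ratio 2.24 and 2.64. Same-numbered libraries did not all deviate together: their correlations were -0.064 to 0.338, against -0.262 to 0.319 for other pairs, with pairs 0 (0.153) and 2 (0.338) over 0.1, and 2 of 6 libraries labelled mutant correlated best with their own number, so the numbers were not taken as pairs. With a replicate block Aldh1a1 and Aldh1a3 stayed called and Ret was not (log2 fold change -0.32, adjusted p = 0.0793), leaving 0 of the wider list lower. The causes were not tested.

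Depth limits genes such as Crabp1, with 1 to 20 fragments per library, and Adh7, described below. Intervals rest on the spread between these libraries alone.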

Other observations

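Of 19 genes of the wider retinoid list that were too low for the filter, the groups overlapped in 17. The other 2 were Adh7 and Dhrs9. Over all 11883 genes set aside by the filter 2.61% had no overlap. Adh7, an alcohol dehydrogenase with high activity on retinol, averaged 0.406 CPM in the libraries labelled mutant and 0.0909 CPM in control libraries, and Dhrs9, a retinol dehydrogenase, averaged 2.03 CPM in the libraries labelled mutant and 0.861 CPM in control libraries. In the edgeR fit without the filter the log2 fold change was 2.12 (SE 0.37, adjusted p = 0.00248) for Adh7 and 1.22 (SE 0.25, adjusted p = 0.00898) for Dhrs9. That fit called 972 of 24285 genes higher (4.0%). The Adh7 values rest on only 10 to 29 fragments in a library labelled mutant and 1 to 7 in a control library. Adh7 and Dhrs9 were named after their values were seen.

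Rbp7, a retinol binding protein gene, averaged 1.01 ± 0.149 CPM in the libraries labelled mutant and 0.703 ± 0.177 CPM in control libraries (SD, n = 6 each), and its log2 fold change of 0.52 was not called (edgeR adjusted p = 0.0854). Next to no Y-linked transcript was found in mutant replicates 0 and 3 and control replicate 4, and the labels give no sex.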
